A study of Brachypodium distachyon with 11 samples.

Results

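ELF3 binding in long days (LD) and short days (SD) was compared in Brachypodium distachyon Bd21-3, a wild grass related to wheat and barley. The comparison used the 6 ELF3_OX libraries of both photoperiods, out of 11 samples in the series, of which 10 had a peak list. The libraries were chosen by their labels: LD at zeitgeber time 0, 4 and 20 (ZT0, ZT4 and ZT20, the hours since lights came on), set against SD at ZT0, ZT4 and ZT20. Seedlings in all 6 conditions were 2 weeks old, grew at 20 °C and carried ELF3 with a GFP-FLAG tag under the UBIQUITIN promoter, which is active in most tissues at all times of day, so transcription of the tagged ELF3 did not follow the gene's own promoter. The study selected homozygous lines with a single insertion. Chromatin was immunoprecipitated with an anti-FLAG affinity gel from whole seedlings and sequenced (ChIP-seq), with 1 library per photoperiod and time. If the day lengths were those used for flowering, ZT20 was the moment of lights off in LD, whereas plants in SD had been in darkness for hours. ChIP from plants without the tag was not analysed here, and the lists do not give read depth.

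ELF3 is a scaffold protein of the evening complex, which it forms with the DNA-binding protein LUX and with ELF4. In Arabidopsis the complex represses clock and growth genes in the evening and early night, and ELF3 itself has no known DNA-binding domain. In temperate grasses, which flower in long days, ELF3 delays flowering, and light acts on it through phytochromes. Whether its chromatin targets differ between day lengths is the question that these libraries address.

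The 6 lists held 87714 peaks, and joining peaks that overlapped by 1 bp or more gave 31738 merged regions. All deposited peaks were used, down to the p under 0.1 at which they were called. The LD lists had 15577, 14884 and 14346 peaks at ZT0, ZT4 and ZT20, and the SD lists had 14823, 13666 and 14418. The log2 ratio of LD to SD list length averaged 0.06 ± 0.07 (standard deviation, n = 3 times), with a two-sided p of 0.5 in an exact sign-flip permutation test, which cannot go below 0.25 with 3 times. Most of these peaks were weak: between 69.2% and 82.6% of a list had a q-value of 1.

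One property separated the photoperiods before any binding was compared. Peaks were narrower in LD than in SD, with medians of 242, 241 and 240.5 bp in LD at ZT0, ZT4 and ZT20 against 267, 263 and 252 bp in SD. The shortest peak was 179, 184 and 183 bp in LD and 202, 201 and 192 bp in SD. The median differed by -19.5 ± 7.09 bp (standard deviation, n = 3 times), and the groups did not overlap, but both the exact sign-flip permutation p of 0.25 and the exact two-sided permutation p of 0.1 over 3 and 3 libraries are the smallest this design allows. SD at ZT20 lay closest to the LD lists. Nothing in the labels gives a batch, and the part of peak width in the values below was not tested. Where a value with equal widths is given, only the extent of peaks already called was changed.

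Regions found in every library far outnumbered those found in every library of 1 photoperiod and none of the other. Of the merged regions, 4790 (15.1%) were listed in all 6 libraries, 315 in all 3 LD lists and no SD list, and 166 in all 3 SD lists and no LD list. The LD-only and SD-only regions made up 0.993% and 0.523% of all regions. Regions in a single library were the most frequent kind, with 12862 (40.5%): 6271 in 1 LD list and 6591 in 1 SD list. In all, 7848 regions were listed in LD but never in SD, and 7780 in SD but never in LD. Regions in more LD than SD lists numbered 11671 and those in fewer LD than SD lists 10751.

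**Figure D1:**
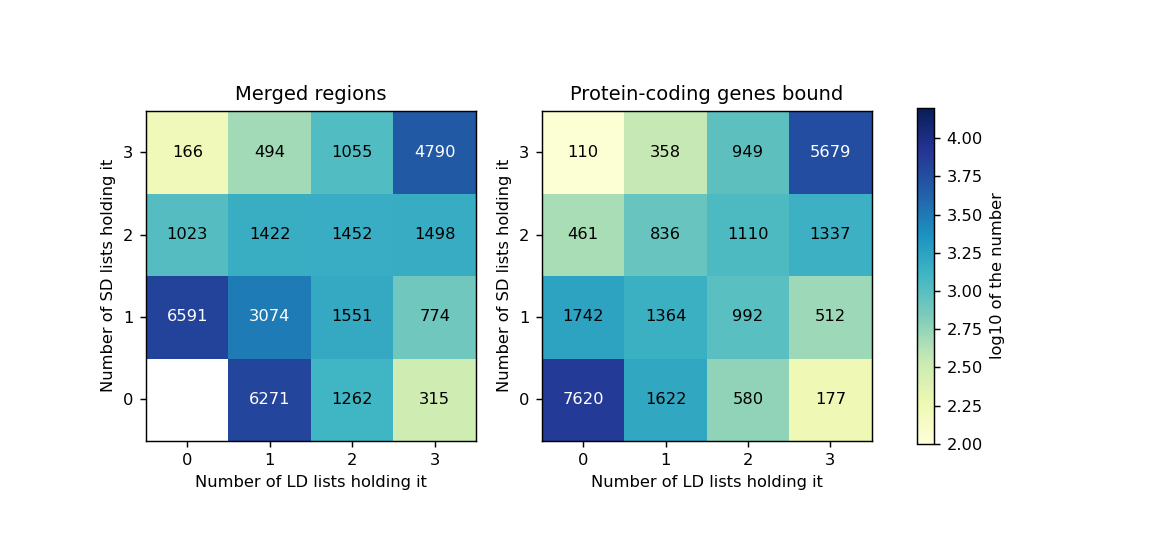
Number of merged regions (left) and of protein-coding genes with a peak within 2 kb (right), by how many of the 3 LD lists (horizontal axis) and of the 3 SD lists (vertical axis) held them, with colour on a log10 scale. The corner held by all 6 lists has 4790 regions and 5679 genes, against 315 regions and 177 genes in the LD-only corner and 166 regions and 110 genes in the SD-only corner.

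The excess of LD over SD was not the same at each time. At ZT0, 6579 regions were listed in LD but not in SD and 5949 in SD but not in LD. At ZT4 the numbers were 6682 in LD alone and 5547 in SD alone, and at ZT20 they were 4916 and 4944. The difference averaged 579 ± 583 regions (standard deviation, n = 3 times), with a p of 0.5 in the same exact test. Of the LD regions, 57.0%, 54.3% and 65.2% were also listed in SD at the same time, so the photoperiods overlapped most at ZT20.

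The LD-only regions were weak in every list that held them. Their median fold enrichment over the peak caller's background ranged between 1.55 and 3.84, with a median of 2.22 over the 315 regions, against 2.80 over the regions in all 6 lists. Over all merged regions this median was 2.19. No peak in them passed q under 0.01. The strongest, at chr2:57256920-57257126, lay outside genes and over 500 bp from the nearest gene end, that of LOC100832640. Its fold enrichment was 3.87, 3.40 and 3.84 in LD at ZT0, ZT4 and ZT20, with no peak in any SD list. The RefSeq table gives no gene name or role for this LOC gene or for the other LOC genes below.

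Next came a region at chr2:37960801-37961025 inside LOC100830111, near its end, with 2.18-fold, 3.41-fold and 3.17-fold enrichment in LD. A region inside LOC100834109 (chr3:57353636-57353860) had 2.49-fold, 3.27-fold and 3.0-fold enrichment in LD. Among the other 5 named LD-only regions, that at LOC100835589 also overlapped LOC100834971 and had its midpoint inside a gene. The rest lay beside LOC100838253, inside LOC100830648, or over 2 kb from any gene end on chromosomes 3 and 5. Within a region the 3 LD values spread widely: the region at LOC100835589 had 1.81, 2.83 and 3.24.

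The SD-only regions were weak as well. Their median fold enrichment ranged between 1.65 and 2.92, with a median of 2.14 over the 166 regions, and none had a peak past q under 0.01. The strongest, inside LOC100843159 (chr2:3283563-3283801), had 2.92-fold, 2.73-fold and 3.21-fold enrichment in SD at ZT0, ZT4 and ZT20. A region near the end of LOC100838335 (chr1:2541092-2541342) followed with 2.87, 2.81 and 3.17 in SD. A region outside LOC100846426 but near its end (chr3:939057-939450) had 3.53-fold, 2.78-fold and 2.69-fold enrichment in SD. Of the other 5, 4 were nearest to LOC100824324, LOC100829537, LOC100825918 and LOC100837302, and the fifth lay inside LOC100826629, over 2 kb from its ends.

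**Figure D2:**
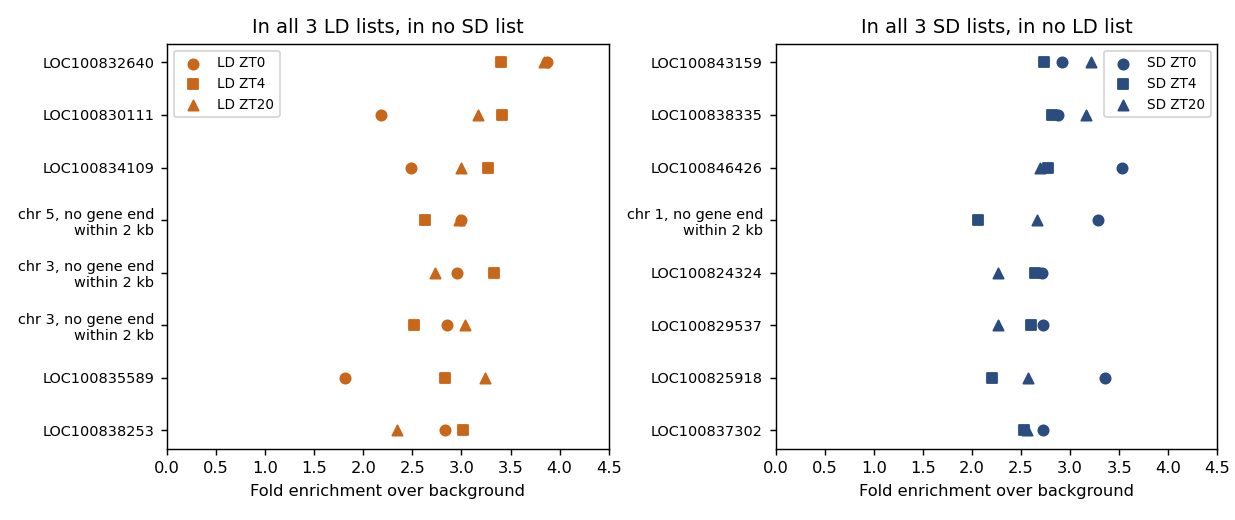
Fold enrichment in each library (horizontal axis) of the 8 strongest regions listed in all 3 LD lists and no SD list (left, orange) and of the 8 strongest listed in all 3 SD lists and no LD list (right, blue), named by the nearest gene end within 2 kb. Values run between 1.81 and 3.87 in LD and between 2.06 and 3.53 in SD.

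Both kinds of region lay near gene ends less often than the common ones. Region midpoints were less than 500 bp from an end of a protein-coding gene in 47.6% of LD-only and 44.0% of SD-only regions, against 62.2% of regions in all 6 lists and 42.8% of all merged regions. Midpoints fell inside a gene in 57.5% of LD-only and 54.8% of SD-only regions, against 59.0% in all 6 lists. LD-only regions were narrower, with a median of 284 bp against 353.5 bp for SD-only regions, in the order of the peak widths of their lists. They were spread over the 5 chromosomes, at 0.835% to 1.25% of the regions of a chromosome in LD and 0.476% to 0.562% in SD.

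The other ChIP lists of the series, which had no part in the choice of these regions, held some of them. The ELF3 library from constant light (LL) at ZT0 listed 62.5% of LD-only regions (95% Wilson interval 57.1% to 67.7%, counting error only) and 44.0% of SD-only regions (36.7% to 51.6%). It listed 96.6% of the regions in all 6 lists, 15.2% of those in 1 library and 44.8% of all merged regions. PRR37 in LD at ZT4 went the other way, with 22.9% of LD-only regions (18.6% to 27.8%) and 35.5% of SD-only regions (28.7% to 43.1%), beside 83.4% of the regions in all 6 lists and 33.3% of all merged regions. The PHYC libraries, both from LD at ZT20, listed 37.8% and 34.6% of LD-only regions and 31.9% and 30.7% of SD-only regions, near their 36.2% and 31.4% of all merged regions.

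The median peak width was 248.5 bp in the LL list, 251 and 248 bp in the PHYC lists and 271 bp in the PRR37 list. PRR37, the widest of these, was also the only list with a larger share of SD-only than of LD-only regions. Among the narrower lists the gap between the shares was not in the order of width. The part of width in these shares was not tested. With every peak set to 250 bp around its summit, a choice made after seeing the widths, the LL list held 61.2% of 327 LD-only and 45.3% of 170 SD-only regions. On that scale PRR37 held 24.5% of LD-only and 35.9% of SD-only regions. Equal widths changed the extent of peaks and not which peaks had been called, so the part of width in the calling was not tested.

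Among regions listed in all 6 libraries, none differed between LD and SD past the threshold in strength of enrichment. Regions missing from any list could not be fitted, so this says nothing about them. Centring also takes out any shift shared by a whole list. Regions listed in all 6 libraries have a fold enrichment in each, so log2 fold enrichment, centred on each list's median, was fitted with limma with the 3 times as a block. Of 4790 regions, 0 were higher and 0 lower in LD at an adjusted p under 0.05 (0% in each direction), and 254 (5.30%) had an unadjusted p under 0.05. The middle 95% of log2 differences, LD minus SD, lay between -0.30 and 0.30, and the extremes were -0.67 and 0.79. The 95% interval of a single region reached a median of 0.30 to either side of its estimate, before any adjustment for 4790 tests. The largest difference, 0.79, did not pass the adjusted threshold, so the lack of calls is no evidence of equal binding. The smallest difference detectable with these 6 libraries is not given here. LD values lay wholly above SD values in 247 regions (5.16%) and wholly below in 263 (5.49%).

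The region nearest to the threshold was at chr5:21317223-21317784, outside genes and over 500 bp from the end of LOC100842920. Its fold enrichment was 2.80, 3.40 and 3.23 in LD at ZT0, ZT4 and ZT20, against 1.68, 2.11 and 1.57 in SD. The LD values all exceeded the SD values, with a log2 difference of 0.79 ± 0.15 (standard error; limma adjusted p = 0.0673). The LL list, outside the fit, had 2.51-fold enrichment there, the PHYC lists 1.57 and 2.26, and PRR37 2.28. The adjusted p fell under 0.05 without centring (0.0463), without a trend in the prior variance (0.0498) and when a ZT0 or ZT4 library or both were left out (0.00367 to 0.0173). It was above 0.05 in the other settings run, the highest being 0.964 with log2 of −log10 p in place of log2 fold, and 0.837 to 0.840 without ZT20 libraries.

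The other 7 regions chosen for the smallest p among those with LD above SD had log2 differences of 0.46 to 0.51 and adjusted p of 0.829 by limma. Near the end of LOC100841634 (chr2:27945092-27945464) the fold enrichment was 5.22, 4.84 and 5.25 in LD and 3.60, 3.39 and 3.81 in SD. Near the end of LOC100833844 (chr1:36104464-36104763) it was 3.62, 3.05 and 4.05 in LD and 2.44, 2.46 and 2.64 in SD. A region at the end of LOC100822263 (chr4:32428805-32429304) had 3.50-fold, 3.78-fold and 3.47-fold enrichment in LD, against 2.45-fold, 2.41-fold and 2.68-fold in SD. In all 3 each LD value was above each SD value. At LOC100830394 and on chr1:60859884-60860265 the lowest value was that of SD ZT4, 1.67 and 1.76, and the other SD values were between 2.92 and 3.44.

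The 8 regions with LD below SD had log2 differences of -0.66 to -0.44 and adjusted p of 0.677 to 0.829. Near the end of LOC100834309 (chr2:2142018-2142742) the fold enrichment was 2.01, 1.97 and 2.33 in LD, against 3.39, 4.10 and 2.45 in SD. Inside LOC100834235 (chr1:62908069-62908331) it was 1.66, 2.01 and 2.02 in LD, against 2.32, 2.87 and 2.92 in SD. A region near the end of LOC100832285 (chr4:45652489-45653359) had 2.40-fold, 2.14-fold and 2.22-fold enrichment in LD, against 3.01-fold, 3.07-fold and 3.37-fold in SD. The groups did not overlap in any of these 3, and none passed the threshold over 4790 regions.

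**Figure D3:**
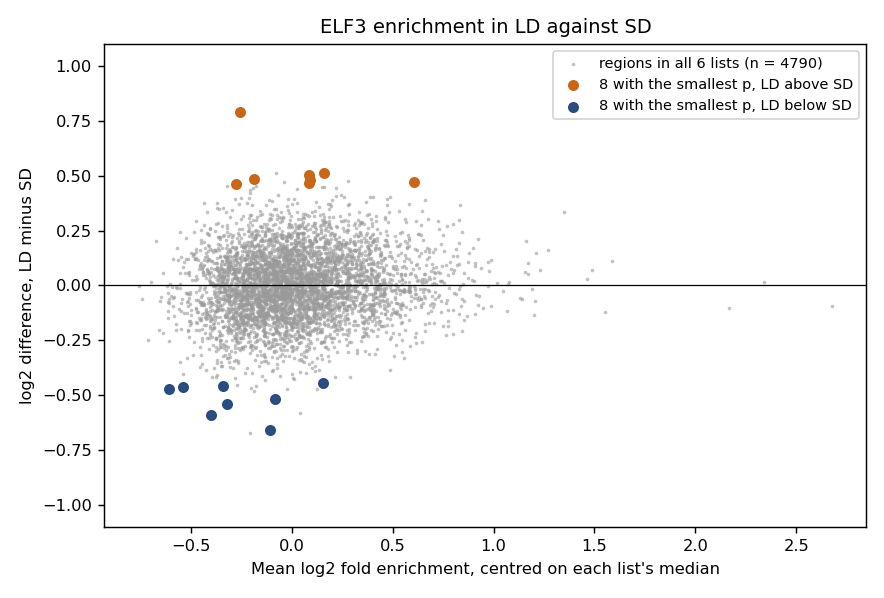
log2 difference in ELF3 fold enrichment, LD minus SD (vertical axis), against the mean centred log2 fold enrichment (horizontal axis) at the 4790 regions listed in all 6 libraries, 1 point per region. Orange and blue points are the 8 regions with the smallest p among those with LD wholly above and wholly below SD, none past the threshold, and the orange point at 0.79 is the region near LOC100842920.

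The 6 strongest common sites had log2 differences, LD minus SD, between -0.12 and 0.34. None passed the threshold, which is no evidence of equal binding. The region with the highest median fold enrichment away from chromosome ends, beside LOC100833891 (chr3:53755882-53756400), had 8.45, 7.72 and 7.83 in LD at ZT0, ZT4 and ZT20 and 9.63, 7.93 and 8.04 in SD. Its log2 difference was -0.12 (95% interval -0.42 to 0.18). A region on a long non-coding RNA gene, LOC112269920 (chr1:50868210-50868891), had 7.23-fold, 8.37-fold and 8.20-fold enrichment in LD and 9.09-fold, 7.05-fold and 6.84-fold in SD, with a log2 difference of 0.03 (-0.29 to 0.34). At the end of LOC100838704 (chr3:53434362-53435561) LD had 8.96, 7.88 and 7.65 and SD 6.51, 7.37 and 5.22, a log2 difference of 0.34 (0.04 to 0.64) with a limma adjusted p of 0.921. In the first 2 the groups overlapped, and in the third they overlapped after centring. The other 3, at the ends of LOC100837119, LOC100833617 and LOC100831978, had log2 differences between 0.07 and 0.16.

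Peaks with q under 0.01 numbered 322, 237 and 341 in LD at ZT0, ZT4 and ZT20, against 490, 217 and 167 in SD. The part of these numbers in the counts that follow was not tested. At this threshold, 9 regions passed in all 3 LD lists and in no SD list, and 1 passed in all 3 SD lists and in no LD list. Beside these, 70 passed in all 6 lists. A single LD list alone held 127, and a single SD list alone held 203. Each of the 9 was nevertheless deposited in all 6 libraries, with a fold enrichment of 3.95 to 5.64 in LD and 2.83 to 4.35 in SD. In 8 of them the LD values lay above the SD values. They included the region at LOC100841634 given above and regions at the ends of LOC100839642 (4.62, 5.32 and 5.11 in LD, against 3.55, 3.81 and 4.26 in SD) and LOC100824891 (5.14, 4.15 and 5.32 in LD, against 3.71, 3.38 and 3.89 in SD). The single region of the SD kind, inside LOC100825148 (chr4:30343389-30344053), had 4.17, 4.39 and 4.15 in LD and 5.05, 4.32 and 4.71 in SD. These regions were picked by the threshold itself, so their order is a description, and their limma adjusted p values were all 0.829 or higher.

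Genes bound in all 6 lists also far outnumbered those bound in all lists of 1 photoperiod only. A protein-coding gene counted as bound if any peak fell within it or up to 2 kb beyond either end, the distance the study used. Of 25449 such genes, 11790, 11389 and 11378 were bound in LD at ZT0, ZT4 and ZT20, against 11445, 10683 and 11258 in SD. In all 6 lists 5679 genes (22.3%) were bound, while 177 (0.696%) were bound in all 3 LD lists only and 110 (0.432%) in all 3 SD lists only. The 34 clock, photoreceptor, flowering and B-box gene identifiers listed for this comparison matched 0 entries of the RefSeq table, and such genes could be followed only where the table gives a symbol.

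MADS-box genes encode transcription factors that control the floral transition and floral organs. Of 8 that the table names, 3 were bound in all 6 lists, and 0 in all 3 lists of 1 photoperiod and none of the other. VRT-2, an SVP-like gene of the kind that acts in the floral transition of cereals, had its highest fold enrichment within 2 kb at 2.81, 3.53 and 3.34 in LD and at 3.90, 2.68 and 2.80 in SD. The groups overlapped. AGL13 had 3.68, 3.39 and 3.43 in LD and 2.56, 2.79 and 3.18 in SD. Here each LD value was above each SD value, but the region's log2 difference of 0.27 ± 0.14 (standard error) had a limma adjusted p of 0.927. AGL11, named after an ovule identity gene, had 2.84, 2.72 and 2.50 in LD and 3.45, 2.62 and 3.43 in SD.

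AP1/FUL2a (LOC100845222), whose relatives promote flowering and specify floral meristems, had a peak in LD at ZT0 (2.71-fold) and ZT4 (3.23-fold), none in LD at ZT20 and none in SD. A gene in 2 LD lists and no SD list was no rarity, since 580 protein-coding genes (2.28%) had that pattern and 461 (1.81%) its reverse. SEP3 (1.77-fold in LD at ZT0) and MADS4 (2.12-fold in SD at ZT4) had a peak in 1 library each. AGL6 had 1 peak in each photoperiod, 2.70-fold in LD at ZT4 and 2.28-fold in SD at ZT20. MADS2 was bound in all LD lists (2.22, 2.83 and 2.73) and in SD at ZT0 and ZT20 (2.55 and 2.29).

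MicroRNA genes give short RNAs that silence target transcripts, many of them for transcription factors of development. Of 310, 41 were within 2 kb of a peak in all 6 lists and 172 in none. Bound in all 3 LD lists and no SD list were 3 (0.968%), and 1 (0.323%) was bound in all 3 SD lists and no LD list, close to the shares of protein-coding genes given above. MIR167G, of a family that targets auxin response factors, had 2.19, 2.09 and 2.59 in LD. MIR398B, of a family that targets copper/zinc superoxide dismutases, had 2.34, 2.03 and 2.11 in LD. MIR5185B had 2.34, 2.48 and 1.96 in LD, and MIR7768B 2.33, 2.04 and 1.79 in SD. All of these values lie below 2.80, the median of the regions in all 6 lists. The other 6 genes of the MIR167 family had no peak in any of the 6 lists, and MIR398A had one in 3 LD and 2 SD lists.

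MIR156 and MIR172 act in opposite phases of plant age, MIR156 silencing SPL genes in juvenile plants and MIR172 silencing AP2-like floral repressors later. Of 10 MIR156 genes, 6 were bound in all 6 lists, 3 in none and MIR156C in SD at ZT20 only. MIR156D had 3.49, 3.45 and 3.21 in LD and 3.08, 3.02 and 3.06 in SD, whereas MIR156B had 1.83, 2.04 and 2.22 in LD and 2.83, 2.51 and 2.61 in SD. For MIR156B the LD values lay below the SD values, and the log2 difference was -0.42 ± 0.14 (standard error; limma adjusted p = 0.829). MIR156E, MIR156F and MIR156G share 1 region, with 2.93, 2.86 and 3.20 in LD and 3.16, 2.26 and 2.90 in SD. MIR172A was bound in LD at ZT0 and ZT4 (2.19 and 2.22) and in SD at ZT0 (2.29), MIR172D in LD at ZT0 only (2.06), and MIR172B in no list.

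MIR5200 targets FT transcripts in Brachypodium, which links it to the photoperiodic control of flowering. Its 3 genes, MIR5200A, MIR5200B and MIR5200C, had no deposited peak within 2 kb in any of the 6 lists. They were among 172 of 310 microRNA genes (55.5%) without a peak, so this absence is not particular to MIR5200.

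The microRNA genes with the highest enrichment were shared. MIR159B, whose family targets GAMYB factors, had 4.94, 4.39 and 5.19 in LD and 3.31, 4.27 and 4.05 in SD at its strongest peak. MIR528, a monocot microRNA linked to copper and oxidative stress, had 5.74, 4.66 and 5.12 in LD and 3.52, 3.38 and 4.78 in SD. MIR166E, whose family targets HD-ZIP III factors of organ polarity, had 4.44, 3.65 and 4.62 in LD and 4.51, 4.28 and 4.01 in SD. As deposited, the LD values were the higher ones at MIR159B and overlapped the SD values at the other two, and centred on each list's median they overlapped at MIR159B as well.

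Over the 37 regions listed in all 6 libraries at microRNA genes, the median log2 difference was 0.06 with a range of -0.42 to 0.39, beside a median of 0.00 over all regions fitted. LD lay above SD in 5 of the 37, at MIR166B, MIR166G, MIR171A, MIR5055 and MIR7717C, and below in 1, at MIR156B, on the centred scale, beside 5.16% above and 5.49% below over all 4790 regions. At MIR5055 the values were 4.46, 4.77 and 4.64 in LD and 3.99, 2.83 and 4.02 in SD. The smallest adjusted p among them was 0.829 by limma.

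**Figure D4:**
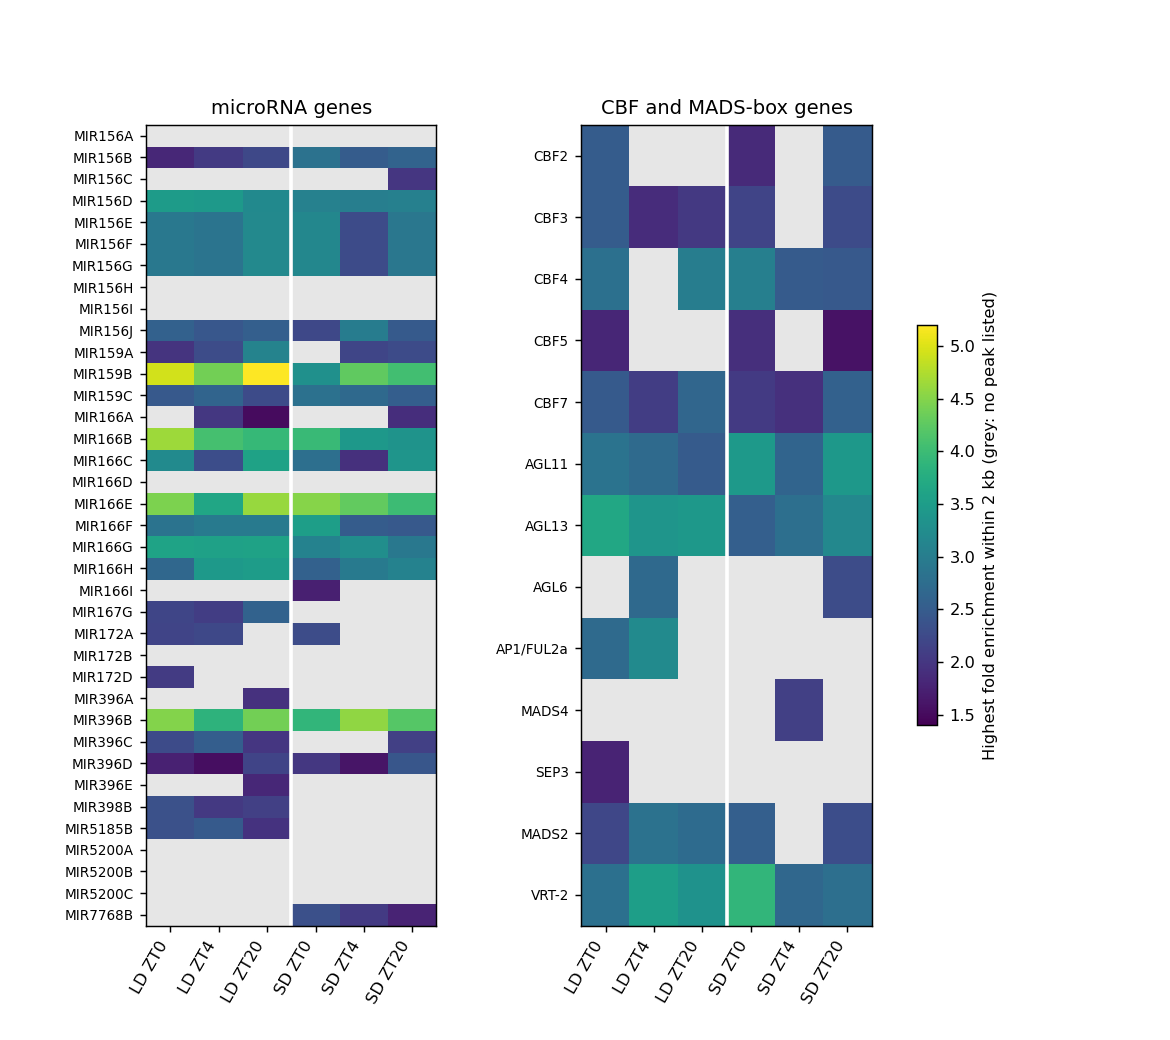
Highest fold enrichment of a peak within 2 kb in each of the 6 libraries (columns, LD left of SD) for microRNA genes of the families MIR156, MIR159, MIR166, MIR172, MIR396 and MIR5200 and those bound in 1 photoperiod only (left), and for CBF and MADS-box genes (right). Grey cells have no deposited peak; MIR167G, MIR398B and MIR5185B have values only in LD, MIR7768B only in SD, and the MIR5200 genes none.

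CBF genes encode AP2/ERF transcription factors of the cold response, and the 5 named ones all lie on chromosome 4. CBF7 was bound in all 6 lists, at 2.48, 2.10 and 2.65 in LD and 2.05, 1.92 and 2.58 in SD. CBF4 was bound in LD at ZT0 and ZT20 (2.81 and 3.01) and in all SD lists (3.05, 2.50 and 2.46). CBF3 was bound in all LD lists (2.51, 1.88 and 2.03) and in SD at ZT0 and ZT20 (2.17 and 2.27). CBF2 and CBF5 had a peak in LD at ZT0 and in SD at ZT0 and ZT20. CBF2 and CBF3 share 1 region and have the same value, 2.51, in LD at ZT0, so they are not independent. Each CBF gene was bound in at least 1 list of both photoperiods, and the ZT4 lists missed 3 of the 5 in LD and 3 in SD.

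Further genes that the table names were outside the gene lists and were chosen after their values were seen. SnRK2 kinases act in abscisic acid signalling, and of 9 SAPK genes 3 were bound in all 6 lists, 4 in more LD than SD lists and 0 in more SD than LD lists. SAPK4, the widest of these gaps, had 2.82, 1.72 and 2.43 in LD and only 1.80 in SD at ZT20. The phosphatase gene PP2C30, of the family that restrains these kinases, had a peak in LD at ZT0 and ZT4 (2.24 and 2.32) and none in SD, while PP2C53 was bound in 1 LD and 2 SD lists. Of 8 SWN genes, which encode NAC factors of secondary cell walls, 4 were bound in all 6 lists, 2 in more LD and 1 in more SD lists. Over all protein-coding genes, 5220 were bound in more LD and 4456 in more SD lists.

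Small RNA genes of other kinds were bound in all lists of 1 photoperiod only about as rarely as protein-coding genes, for which the shares were 0.696% in LD and 0.432% in SD. Of 299 small nucleolar RNA genes, 66 were bound in all 6 lists and 0 in all 3 lists of 1 photoperiod only, and of 86 small nuclear RNA genes these numbers were 14 and 0. Of 528 transfer RNA genes, 54 were bound in all 6 lists, 3 (0.568%) in all 3 LD lists only and 2 (0.379%) in all 3 SD lists only. The LD-only ones were TRNAH-GUG, TRNAS-CGA and TRNAT-CGU, and the SD-only ones TRNAD-GUC and TRNAI-AAU. Transfer RNA symbols can stand for several near-identical copies, and peaks at them are uncertain for that reason.

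Pairs of lists from 1 photoperiod were not uniformly more alike than pairs across photoperiods. Over the 4790 common regions, Pearson's r of centred log2 fold enrichment was 0.723 to 0.745 for the 3 LD pairs, 0.680 to 0.751 for the 9 pairs of an LD and an SD list, and 0.649 to 0.693 for the 3 SD pairs. These are correlations across regions, which are no independent replicates, and all pairs share the choice of regions listed everywhere. The highest value joined LD ZT0 with SD ZT20 (0.751), and the lowest joined SD ZT0 with SD ZT4 (0.649). SD ZT20 had 0.734 to 0.751 with the LD lists, above its 0.693 and 0.686 with SD ZT0 and SD ZT4. It is also the SD list with the narrowest peaks, and the part of width in this order was not tested.

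**Figure D5:**
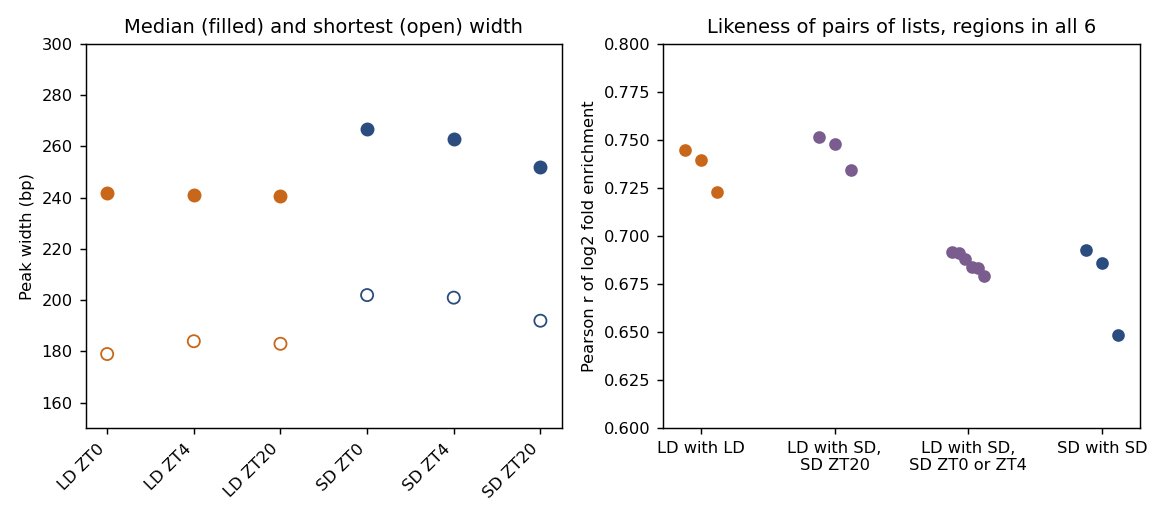
Left, median (filled) and shortest (open) peak width in bp of each library, LD (orange) left of SD (blue), with an axis that starts at 150 bp. Right, Pearson's r of log2 fold enrichment over 4790 regions for each pair of lists; the 3 LD pairs and the 3 pairs of an LD list with SD ZT20 lie at 0.723 to 0.751, above the other pairs.

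The position of summits relative to genes did not separate the photoperiods. The share of summits less than 500 bp from an end of a protein-coding gene was 51.1%, 47.0% and 50.9% in LD at ZT0, ZT4 and ZT20, against 48.2%, 47.9% and 51.5% in SD. The difference, LD minus SD, averaged 0.48 ± 2.10 percentage points (standard deviation, n = 3 times), with a p of 1.0 in the exact sign-flip test. It was positive at ZT0 only.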

How the data were processed

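Peak lists of the 6 ELF3 libraries were analysed, 1 per library. According to the study's methods, reads were mapped with bwa to Brachypodium genome version Bdistachyon_314_v3.1 and peaks called with MACS2. The submitters' processing notes name Trimmomatic, Bowtie2, Picard, deepTools and MACS2, with an Arabidopsis build, whereas the chromosome names of the files are those of Brachypodium. No source used here says whether an input control entered peak calling. Per peak, the authors deposited a fold enrichment (a ratio), −log10 p, −log10 q and a score derived from −log10 p. The study's filter of q under 0.01 had not been applied to the deposited lists. Since each fold refers to the background of its own library and depth is unknown, folds were tested between lists only as logs centred per list, and values given per library are the deposited folds.

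Merged regions joined peaks sharing at least 1 bp, and a region took the highest fold enrichment of its peaks in a list. Coordinates are those of the deposited peaks, counted from 1. Genes came from the RefSeq table of assembly Bd21, used for names and neighbours only: of 17326 summits with −log10 p above 3, 64.6% were less than 500 bp from a gene end, against 18.5% to 21.0% after shifting genes by 2000, 10000 or 50000 bp. Strand and sequence were not used. limma 3.58.1 (R 4.3.3) fitted photoperiod and time with a trended prior and Benjamini-Hochberg adjustment over all 4790 regions. limma and the merging functions were tested on simulated data. Other values were computed in Python 3.11.15 with numpy 2.4.6, pandas 2.3.3 and scipy 1.17.1, and plotted with matplotlib 3.10.9.

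Named were the 8 strongest regions of each photoperiod alone, the 6 strongest of all 6 lists (both over 5 kb from chromosome ends), the 8 regions in each direction with the smallest limma p among those with groups apart, and members of the gene lists (clock, flowering, B-box, MADS-box, CBF, microRNA and other small RNA genes). Regions passing q under 0.01 in 1 photoperiod, and named genes outside the lists, were added after seeing values. The libraries and lists were chosen with earlier results of these data known. No library had a replicate of its own condition, and nothing says whether libraries came from separate cultures. The p-values of the sign-flip tests therefore rest on how LD minus SD varied over the 3 times. Those of limma with time as a block use that variation too. However, limma draws each region's variance towards a trended prior estimated over all regions fitted, so a region's own variation is only part of it. The exact test over 3 and 3 libraries did not pair them by time.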

Additional observations from a re-analysis of the deposited data

Results flagged for a closer look

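The sign of the LD minus SD difference was not the same at each time for 2 single-library measures. These differences between times were not tested, since each rests on 1 library per condition. The share of summits within 500 bp of a gene end differed by 2.90 percentage points at ZT0, by -0.89 at ZT4 and by -0.57 at ZT20. At ZT0 the 95% Wilson intervals were 50.3% to 51.9% in LD and 47.4% to 49.0% in SD, and at ZT4 and ZT20 the intervals of LD and SD overlapped. These intervals hold counting error over the peaks of 1 library only. They leave out variation between libraries, so whether they overlap is no test of photoperiod. The log2 ratio of list length, LD over SD, was 0.0716 at ZT0, 0.123 at ZT4 and -0.00722 at ZT20.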

How the results depend on the processing

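With stricter peaks the counts of LD-only regions (315) and SD-only regions (166) shrank to 9 and 1 at q under 0.01, 46 and 22 at −log10 p above 3, and 19 and 9 for the 1000 strongest peaks of each list. LD-only genes (177) and SD-only genes (110) became 9 and 1 at q under 0.01. Lists of equal length, summits within 200 bp, omission of regions over 2000 bp or near chromosome ends, and 250 bp windows kept both region counts within 1.5 times. Lists of equal length narrowed the gap between LD and SD, to 262 LD-only and 180 SD-only regions. For genes they gave 143 LD-only and 115 SD-only genes. With the ZT20 pair alone, added after seeing the data, SD-only regions outnumbered LD-only ones, at 5022 for LD and 5096 for SD. Leaving out a time or a library relaxes the rule and gave 464 to 1343 LD-only and 313 to 851 SD-only regions. For genes, leaving out a time gave 564 to 728 LD-only and 452 to 488 SD-only genes. The order turned only without SD ZT4 (464 LD-only and 477 SD-only). limma called 0 regions in either direction, except 1 higher in LD without centring and 1 without a trend in the prior variance. Leaving out a time or library gave 0 to 5 calls in each direction: up to 5 higher and 5 lower without LD ZT4 or SD ZT4, 3 higher and 2 or 3 lower without ZT0 libraries, and 0 without ZT20 libraries. Of 240 refits of the 16 named regions 0 changed direction, and 11 passed the threshold: 8 at LOC100842920 and 3 at LOC100825996 (log2 difference -0.85 without ZT4 libraries, adjusted p 0.00367 to 0.00422). These regions were chosen with LD and SD values apart, so leaving out lists could not change their direction. With time as a block, leaving out 1 library of a pair gives the same estimate as leaving out the pair. The refits that passed are therefore not separate results. The gene-end share difference changed sign without the ZT0 pair (-0.73 percentage points, within a range of -0.73 to 1.17). List length ratio (0.03 to 0.10) and width (-23.5 to -16.8 bp) did not change sign. Promoter motif shares were not run. Without time as a block limma also called 0 regions.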
